A study of Homo sapiens and Mus musculus with 33 samples.

Results

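HCT116 cells, a human colon cancer cell line, carried acyl marks on lysine 18 of histone H3 at the promoters of many genes whose mouse counterparts had no peak of the crotonyl mark, H3K18cr, in colon epithelium. The genes described here were chosen by measured values in 3 steps, and those values are a description and no finding. A peak of the shared HCT116 list of H3K18cr and H3K18ac (acetylated lysine 18) had to lie within 1 kb of the start of a gene with a mean of at least 1 CPM (counts scaled to a library of 1e+06 counts) over the 4 control RNA-seq libraries. The symbol of that gene, written in mouse style, had to be listed in the RNA-seq table of the mouse colon. The mouse gene had to have no colon H3K18cr peak within 2 kb of its span. Colon signal outside the listed peaks was not measured, so a weak mark cannot be told from none. The rule found 1132 of the 40266 HCT116 peaks, at 1123 genes. These were 12.4% of the 9042 genes that passed every other part of the rule. The remaining 7919 genes, with 7310 peaks, had a colon H3K18cr peak and are called the genes marked in both. A match of symbols is not a test of orthology, and the rule compares a human cell line with mouse tissue, so differences between HCT116 cells and colon are given as descriptions, with no test.

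Colon epithelium was taken with EDTA from male C57BL/6 mice. By the study's methods 3 colons were pooled for a set of ChIP experiments, while its figure legend names 2 mice. It is thus open whether the 2 H3K18cr libraries share animals. The colon data were 2 H3K18cr libraries with 2 inputs, 3 H3K4me3 libraries with 1 input, H3K4me3 being trimethylation of lysine 4 on the same histone that marks promoters, and RNA-seq of 3 mice. HCT116 cells received either the solvent DMSO or 5 µM MS275 over 18 h, MS275 (entinostat) being an inhibitor of class I histone deacetylases. Each treatment had 3 H3K18cr, 3 H3K18ac and 4 RNA-seq libraries, and 1 input. HCT116 is 1 cell line. The study's methods call its RNA replicates biological, and neither they nor the labels say whether its libraries came from separate cultures, so p-values measure the spread between libraries, which may be technical.

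Crotonylation and acetylation are acyl groups that enzymes place on histone lysines and that histone deacetylases take off. Both are found near the starts of active genes, where H3K4me3 is also found. Enzymes that place acyl groups draw on acyl-CoA from metabolism, and bacteria of the colon supply short-chain fatty acids that feed into it. HOX and other developmental genes are classic examples of genes with H3K4me3 in tissues where they are hardly transcribed.

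Promoter sequences are given first for genes at the ends of the range: S100A4, HSPB1, DKK1, CRABP2, MAGEB2 and NR2F1, with high RNA in HCT116 cells and under 1 CPM in colon, and FCGBP and DDOST, with high RNA in colon. Each run holds the 250 bases before the RefSeq start (GRCh38.p14), read 5′ to 3′ on the strand of the gene. Capitals mark matches to 4 short motifs on either strand. The TATA box was read as TATAAA. The CCAAT box was read by its own 5 letters. The GC box was read as GGGCGG. The ETS motif was read as CCGGAAG. No motif holds another. All 8 runs lie inside a peak of the HCT116 list.
S100A4: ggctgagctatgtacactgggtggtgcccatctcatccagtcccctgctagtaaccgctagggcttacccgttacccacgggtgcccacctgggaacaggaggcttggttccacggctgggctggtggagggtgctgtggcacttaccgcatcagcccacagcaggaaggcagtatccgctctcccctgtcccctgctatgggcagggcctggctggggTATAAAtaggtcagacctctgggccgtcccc
HSPB1: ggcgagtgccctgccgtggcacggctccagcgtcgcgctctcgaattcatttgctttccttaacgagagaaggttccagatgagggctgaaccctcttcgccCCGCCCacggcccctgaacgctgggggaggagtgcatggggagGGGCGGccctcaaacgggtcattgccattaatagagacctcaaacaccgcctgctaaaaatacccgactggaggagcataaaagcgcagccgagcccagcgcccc
DKK1: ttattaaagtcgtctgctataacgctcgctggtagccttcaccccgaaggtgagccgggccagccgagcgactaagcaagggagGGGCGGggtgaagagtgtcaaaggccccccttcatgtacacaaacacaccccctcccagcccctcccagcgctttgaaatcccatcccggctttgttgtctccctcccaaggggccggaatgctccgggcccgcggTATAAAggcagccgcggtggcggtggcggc
CRABP2: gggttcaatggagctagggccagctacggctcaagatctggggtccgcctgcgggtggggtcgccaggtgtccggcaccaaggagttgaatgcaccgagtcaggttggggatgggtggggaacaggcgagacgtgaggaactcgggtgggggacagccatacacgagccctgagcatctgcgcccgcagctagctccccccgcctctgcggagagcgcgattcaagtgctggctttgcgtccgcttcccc
MAGEB2: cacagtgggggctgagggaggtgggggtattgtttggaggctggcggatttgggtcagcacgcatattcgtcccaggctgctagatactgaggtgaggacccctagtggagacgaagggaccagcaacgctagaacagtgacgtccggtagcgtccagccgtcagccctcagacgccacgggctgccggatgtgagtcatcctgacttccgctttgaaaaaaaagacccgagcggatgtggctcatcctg
NR2F1: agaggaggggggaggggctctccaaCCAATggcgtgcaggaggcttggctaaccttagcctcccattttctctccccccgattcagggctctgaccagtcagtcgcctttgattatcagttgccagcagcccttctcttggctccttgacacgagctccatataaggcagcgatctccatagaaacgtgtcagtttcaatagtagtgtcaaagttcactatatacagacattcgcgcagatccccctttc
FCGBP: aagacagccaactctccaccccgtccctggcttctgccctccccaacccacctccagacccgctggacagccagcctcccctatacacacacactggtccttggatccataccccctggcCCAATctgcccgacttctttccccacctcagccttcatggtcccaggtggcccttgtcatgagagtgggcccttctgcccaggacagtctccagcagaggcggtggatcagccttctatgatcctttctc
DDOST: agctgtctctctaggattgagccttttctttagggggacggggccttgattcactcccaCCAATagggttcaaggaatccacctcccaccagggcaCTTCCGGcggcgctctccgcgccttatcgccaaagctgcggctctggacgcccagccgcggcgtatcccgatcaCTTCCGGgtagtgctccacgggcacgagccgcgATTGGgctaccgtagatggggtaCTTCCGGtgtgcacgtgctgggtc
The runs lie at chr1:153545807-153546056 (- strand), chr7:76302423-76302672 (+ strand), chr10:52314031-52314280 (+ strand), chr1:156705785-156706034 (- strand), chrX:30215313-30215562 (+ strand), chr5:93582972-93583221 (+ strand), chr19:39934635-39934884 (- strand) and chr1:20661370-20661619 (- strand). The S100A4 and DKK1 runs each held 1 TATA box, the DKK1 run also 1 GC box and the HSPB1 run 2 GC boxes. The NR2F1 and FCGBP runs each held 1 CCAAT box, and those of CRABP2 and MAGEB2 held none (0) of the 4 motifs. The DDOST run held 3 ETS motifs and 2 CCAAT boxes and had the highest CpG ratio of the 8, 0.864 of the number its base composition would give by chance, while that of FCGBP had the lowest, 0.2003. The RefSeq start of S100A4 lies 4330 bp from the start given in the deposited gene table, and that of DDOST 175 bp from it.

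The same windows before the start of every gene in the deposited table were compared as a description. The median CpG ratio was 0.750 at the 1123 genes, 0.795 at the genes marked in both and 0.425 over all genes of the table. A ratio under 0.4, typical of promoters outside CpG islands, was found at 15.5% of the 1123 genes, 10.8% of the genes marked in both and 48.2% of all genes. In the mouse genome (GRCm38) the ratio was under 0.4 at 25.4% of the 1123 genes and 12.5% of the genes marked in both. It was under 0.4 at 34.2% of those under 1 CPM in colon, compared with 21.6% of the genes marked in both that were under 1 CPM. Of the 1123 human windows, 60.4% held a GC box, 33.2% a CCAAT box, 8.82% an ETS motif and 5.88% a TATA box. At the genes marked in both the shares were 61.8%, 32.8%, 11.5% and 4.93%, and over all genes 33.7%, 31.7%, 5.99% and 11.9%. The ETS motif was found at 12.5% of the windows of genes at 1 CPM or more in colon and at 3.92% of those under 1 CPM. The CCAAT box was found at 38.7% and 26.0% of the same windows. An E-box, read as CACGTG, was found at 7.39%, a TCF motif, read as CTTTGAA, at 2.49%, a cyclic AMP response element (CRE) at 2.23% and an E2F motif at 1.51% of the 1123 windows. The shares were 8.37%, 2.41%, 2.24% and 0.606% at the genes marked in both and 5.62%, 3.996%, 1.24% and 0.372% over all genes.

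RNA-seq libraries held 35608533 to 53415604 counts in HCT116 cells and 8166406 to 10707901 in colon, where a count of 0 allows a level of up to 0.280 to 0.367 CPM per mouse (3 counts). HCT116 ChIP libraries held 2236551 to 5730094 reads in peaks. The labels of the tissue were checked against marker genes. In colon all 9 epithelial markers, all 5 of absorptive cells and all 4 of goblet cells were at 1 CPM or more, the epithelial markers summing to 9291 to 10923 CPM. Immune markers were at 1 CPM or more for 5 of 7, with a sum of 25.6 to 42.9 CPM, and stromal and vascular markers for 7 of 8, with a sum of 33.7 to 52.9 CPM. None (0) of the 3 markers of enteric neurons and glia reached 1 CPM. HCT116 cells had 7 of 9 epithelial markers, 0 of 5 absorptive and 1 of 4 goblet markers (FCGBP) at 1 CPM or more, and CDX1 was at 0 in all 4 control libraries. Levels in the ChIP libraries differed within groups. At the 1132 peaks the median H3K18ac level, in reads that the authors scaled to the largest library, per kb of peak, was 40.6, 47.5 and 64.4 in the 3 DMSO libraries, so that DMSO replicate 3 was far above replicate 1, and 43.6, 33.2 and 32.8 in the MS275 libraries.

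The 1123 genes formed 2 main classes in colon. Of them, 581 (51.7%) had both a mean of at least 1 CPM and an H3K4me3 peak within 2 kb, that is, they were used there without an H3K18cr peak. Another 393 had the H3K4me3 peak and under 1 CPM, 57 had at least 1 CPM and no such peak, and 92 had neither. In total 638 genes (56.8%) reached 1 CPM, with 620, 654 and 637 in the single mice, compared with 96.8% of the genes marked in both. An H3K4me3 peak was present at 974 genes (86.7%) and at 99.3% of the genes marked in both. At those peaks the median H3K4me3 signal of the 3 libraries was 87.4, 138 and 183 scaled reads at the 1123 genes, with 30 in the input, and 163, 281 and 374 at the genes marked in both, with 38 in the input. For 168 of the 1123 genes no count was found in any mouse, compared with 36 of the genes marked in both. The tissue is a mixture, so fewer cells that use a gene and less RNA per cell cannot be told apart in these levels.

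**Figure D1:**
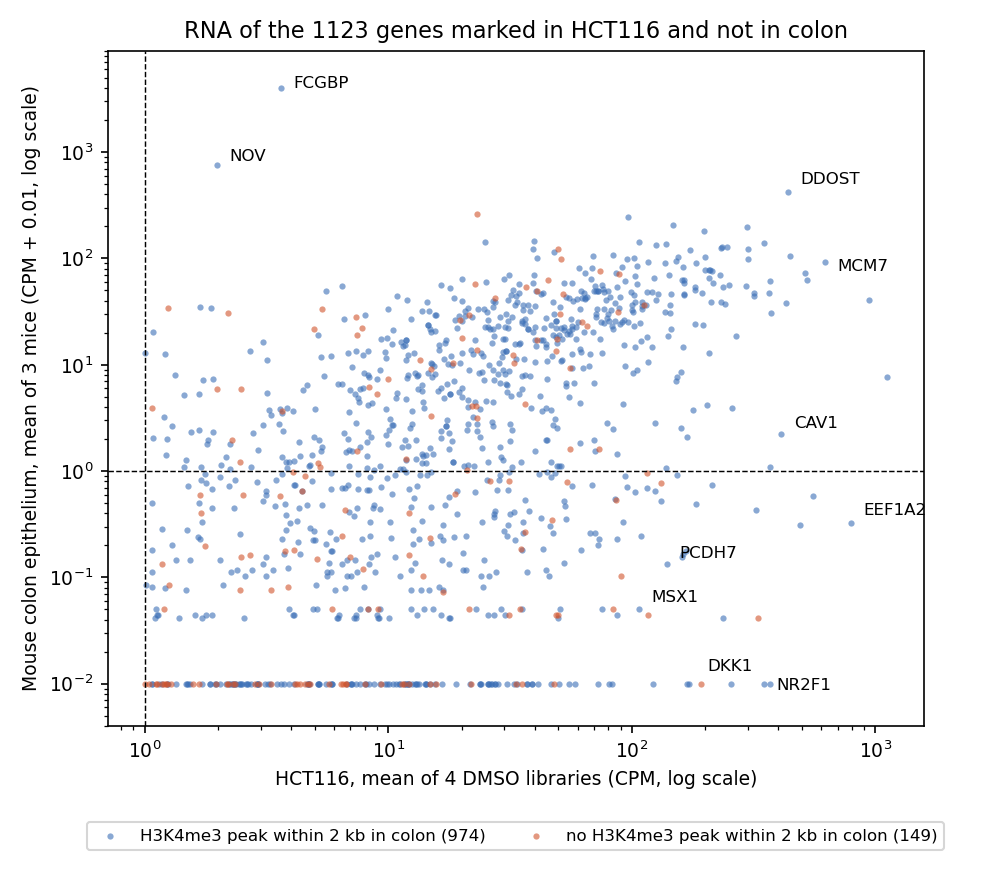
Mean RNA level of each of the 1123 genes in the 4 DMSO libraries of HCT116 cells (horizontal, CPM, log scale) and in the 3 mouse colons (vertical, CPM plus 0.01, log scale). Each point is a gene, coloured by whether it had a colon H3K4me3 peak within 2 kb (974 genes) or not (149 genes), and dashed lines mark 1 CPM. The 168 genes with no count in any mouse form the bottom row.

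The share of genes without an H3K18cr peak fell with the RNA level in the tissue. It was 77.5% (258 of 333) among genes under 0.1 CPM in colon, 56.5% from 0.1 to 1 CPM, 23.3% from 1 to 10 CPM, 6.52% from 10 to 100 CPM and 1.52% (29 of 1906) at 100 CPM or more. The share with an H3K4me3 peak in the same classes rose less steeply, from 76.4% to 93.1% of the genes without an H3K18cr peak, and from 93.3% to 99.7% of those with one. Most genes were not close misses of the distance rule. The nearest colon H3K18cr peak lay 2 to 5 kb away for 166 genes (14.8%), 5 to 10 kb for 160, 10 to 50 kb for 489 and over 50 kb for 308 (27.4%), with a median of 20874 bp. The mouse genes were shorter than those marked in both, with a median span of 18970 bp and 25270 bp.

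**Figure D2:**
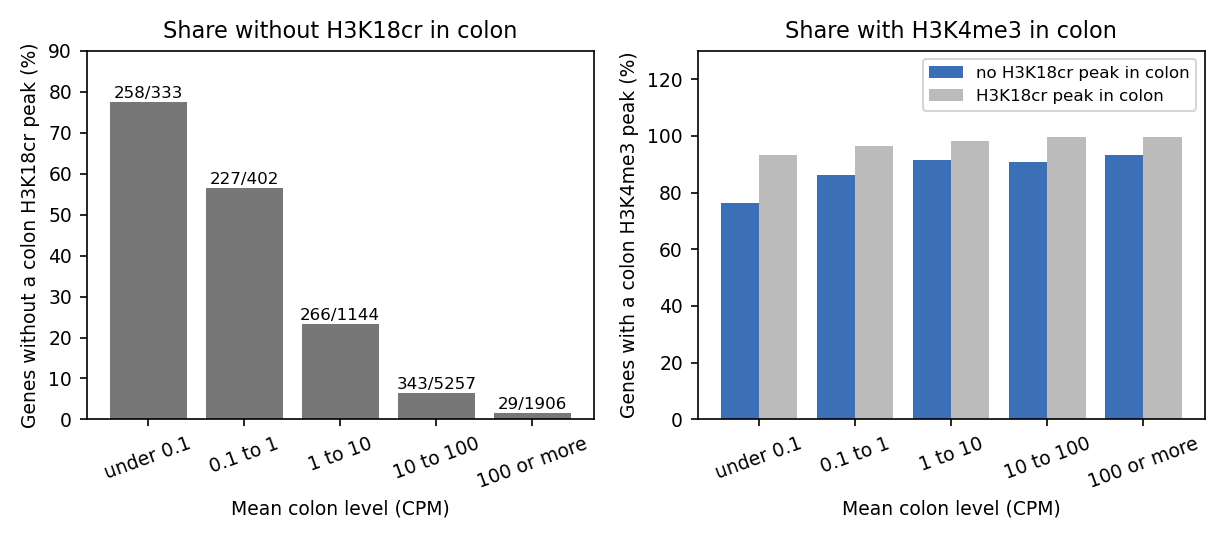
Left, share of the 9042 genes that lacked an H3K18cr peak in colon, by mean colon level in CPM, with the numbers of genes above the bars. Right, share with a colon H3K4me3 peak in the same classes, for genes without (blue) and with (grey) an H3K18cr peak. The left bars fall from 77.5% to 1.52%, and the blue bars stay between 76.4% and 93.1%.

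The genes with the most RNA per kb of exon in HCT116 cells and under 1 CPM in colon were S100A4, HSPB1, NPW, DKK1, EEF1A2, CRABP2, FSCN1, MAGEB2, NR2F1 and IGFBP2. An exon length was found for 1068 of the 1123 genes, and those without one were not ranked. S100A4, a calcium-binding protein, was at 286, 395, 296 and 343 CPM in the 4 DMSO libraries and at 0, 0.0934 and 0 CPM in the 3 mice. DKK1, a secreted inhibitor of Wnt signalling, was at 447, 420.0, 196 and 408 CPM in DMSO, DMSO replicate 3 being the lowest, and at 0 in every mouse. NR2F1, an orphan nuclear receptor, was at 235, 467, 247 and 447 CPM in DMSO and at 0 in every mouse. The distance between cells and tissue follows from the choice of these genes. CRABP2, which carries retinoic acid to the nucleus, and MAGEB2, a germline antigen on the X chromosome, were also at 0 in every mouse, at means of 169 and 193 CPM in DMSO. FSCN1, which bundles actin, was at a mean of 492 CPM in DMSO and at 0.122, 0.467 and 0.309 CPM in the mice, and EEF1A2, a translation elongation factor best known from muscle and neurons, at 797 and at 0.122, 0.0934 and 0.722 CPM. HSPB1, a small heat shock protein, was at a mean of 553 CPM and IGFBP2, which binds insulin-like growth factors, at 322 CPM, both with a colon maximum under 1 CPM. The RefSeq start of NPW, which encodes neuropeptide W, lay 8585 bp from its peak, so the peak may belong to another gene. Of these 10 genes, 8 had a colon H3K4me3 peak within 2 kb, the exceptions being S100A4, whose nearest peak was 6706 bp away, and MAGEB2, whose nearest peak was 1953304 bp away. Reads of MAGEB2, EEF1A2, the tubulin genes and the histone genes named here can be shared with near-identical copies, so their levels are uncertain.

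At the other end stood genes with abundant RNA in colon and no H3K18cr peak near them. FCGBP, a mucus protein of goblet cells, was at 2492, 3894 and 5782 CPM in the 3 mice and at 0.601, 3.14, 6.17 and 4.59 CPM in DMSO-treated HCT116 cells. Its nearest colon H3K18cr peak lay 20936 bp from the gene, while an H3K4me3 peak overlapped it. Both of its marks were weak. The strongest colon H3K4me3 peak within 2 kb was 300 bp wide, with 13.8, 10.7 and 23.1 scaled reads and 6 in the input. The HCT116 peak had 45.0, 57.3 and 55.7 scaled reads of H3K18cr in DMSO and 40.4 in the input. NOV, a matricellular protein, was at 745, 901 and 615 CPM in the mice and at 1.56, 2.42, 1.13 and 2.83 CPM in DMSO. DDOST, a subunit of the complex that attaches sugar chains to proteins, was high in both, at 417, 407 and 431 CPM in the mice and 384, 524, 363 and 483 CPM in DMSO. PAPSS2, which makes the sulfate donor used in mucin sulfation, was at 297, 222 and 274 CPM in the mice with neither mark within 2 kb, its nearest H3K4me3 peak lying 22905 bp away. MAGED1, on the X chromosome, was at 209.6, 278 and 256 CPM in the mice and 95.7, 101, 83.3 and 105 CPM in DMSO. Every mouse was below every DMSO library for 839 of the 1123 genes and above every one for 88, beside 2701 and 3159 of the 7919 genes marked in both. The rule asked for RNA in HCT116 cells in both sets.

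Genes of the X chromosome had a higher share among the 1123 than autosomal genes, which is given as a description. Of 262 mouse X genes that passed the other parts of the rule, 66 (25.2%) had no colon H3K18cr peak, compared with 1057 of 8780 autosomal genes (12.04%), where the share on single autosomes reached 14.2%. On the human X chromosome the share was 65 of 263 (24.7%). Of the 66 genes, 46 were at 1 CPM or more in colon and 51 had an H3K4me3 peak there. The X chromosome held 1.67% of the colon H3K18cr peaks, 1.91% of the colon H3K4me3 peaks and 2.14% of the HCT116 peaks. The colon tissue came from male mice, with a single X chromosome per cell, and the part of that in the shares was not tested.

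Of the 12 gene lists examined, which are set beside the share of 12.4% as a description, the one of DNA replication and mitosis genes held genes active in the tissue. Of 61 list genes marked and expressed in HCT116 cells, 19 (31.1%) had no colon H3K18cr peak, beside 12.4% of all genes, and all 19 were at 1 CPM or more in colon with an H3K4me3 peak. Their colon means lay between 16.6 CPM (BUB1) and 127 CPM (MCM6). They included MCM5, MCM6 and MCM7, subunits of the helicase that opens DNA for replication, and CENPF, a protein of the kinetochore. MCM5 was at 111, 129 and 128 CPM in the mice and 323, 300.1, 309 and 271 CPM in DMSO. MCM7, the most abundant of them in HCT116 cells, was at 87.6, 94.0 and 94.9 CPM in the mice and 718, 635, 582 and 548 CPM in DMSO. MCM2 and MCM3, named here after their values were seen, were members too, at colon means of 99.9 and 61.6 CPM. The nearest colon H3K18cr peak lay 8583 bp from MCM7, 15328 bp from MCM5 and 56845 bp from MCM6.

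Lists of developmental genes differed from this in that few of their members had RNA in colon. Of 36 HOX and other homeobox genes, 13 (36.1%) were members, 12 with an H3K4me3 peak in colon and 1 (HOXB3, at 13.5, 16.7 and 15.6 CPM) at 1 CPM or more. MSX1, a homeobox repressor, was at 109, 96.7, 139 and 83.8 CPM in DMSO and at 0.122, 0 and 0 CPM in the mice. HOXC9 was at 11.6, 14.2, 14.9 and 7.62 CPM in DMSO and at 0 in the mice. SIX4 was at a mean of 25.5 CPM in DMSO and of 0.823 CPM in colon. Of 23 other developmental transcription factors, 11 (47.8%) were members, all 11 with an H3K4me3 peak and 2 at 1 CPM or more in colon. FOXC1 and FOXD1, forkhead factors, were at 75.3, 133, 79.2 and 147 CPM and at 37.7, 23.3, 23.1 and 18.4 CPM in DMSO, and at no more than 0.31 CPM in any mouse. TEAD2, which binds DNA with the YAP coactivator, was at 35.0, 38.3, 29.0 and 41.6 CPM in DMSO and 10.9, 11.2 and 12.1 CPM in the mice, while GLI1, a factor of Hedgehog signalling, was at a mean of 3.91 CPM in DMSO. These lists show H3K4me3 peaks in colon at 23 of 24 members with RNA at 1 CPM or more at 3. Such a peak was also found at 974 of all 1123 genes (86.7%) and at 393 of the 485 under 1 CPM in colon.

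Of 38 cytoskeleton and adhesion genes of mesenchymal cells, 13 (34.2%) were members, 5 at 1 CPM or more in colon and 12 with an H3K4me3 peak. CAV1, the coat protein of caveolae, was at 446, 394, 379 and 427 CPM in DMSO and at 1.96, 3.08 and 1.65 CPM in the mice. PLAU, the urokinase protease, was at 69.0, 114, 64.9 and 100.3 CPM in DMSO and at 0, 0.654 and 0 CPM in the mice, and the tubulins TUBB3 and TUBB6 were at means of 153 and 124 CPM in DMSO and under 1.6 CPM in every mouse. Stromal and vascular markers summed to 33.7 to 52.9 CPM in the same colon libraries, and their part in the colon level of this list was not tested. Of 18 neuronal and synaptic genes, 7 (38.9%) were members, among them STMN3, a microtubule regulator, at 154, 174, 178 and 146 CPM in DMSO and 0.367, 0 and 0.103 CPM in the mice, GPRIN1, SEZ6L2 and BEX2. All 5 germline and meiosis genes that passed the other parts of the rule were members. GTSF1, a factor of the piRNA pathway, was at 102, 125, 121 and 118 CPM in DMSO and at 0, 0 and 0.103 CPM in the mice. PRAME, an antigen of testis and tumours, was at a mean of 33.4 CPM and RIBC2 at 5.16 CPM in DMSO, both at 0 in the mice. PIWIL4 went the other way, at a mean of 2.20 CPM in DMSO and at 26.3, 37.2 and 29.3 CPM in the mice, with its nearest colon H3K18cr peak 2168 bp and its nearest H3K4me3 peak 9668 bp away. TDRKH, the fifth, was named after its values were seen, at means of 7.50 CPM in DMSO and 0.669 CPM in colon. Of 8 oncofetal and pluripotency genes, 3 (37.5%) were members, all with H3K4me3 and none (0) at 1 CPM in colon. These were IGF2BP3, an RNA-binding protein of fetal tissue, at 73.5, 91.3, 48.5 and 119 CPM in DMSO, and the imprinted genes MEST, at 36.5, 53.1, 32.2 and 43.7 CPM, and PEG10, at 43.1, 52.4, 25.1 and 62.1 CPM. IGF2BP3 and MEST were at 0 in every mouse.

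The remaining lists had smaller shares. Of 16 Wnt targets and feedback genes, 3 were members: DKK1, NOTUM, an enzyme that inactivates Wnt, at 21.4, 13.6, 10.8 and 15.0 CPM in DMSO, and NKD2, at 10.6, 9.80, 12.7 and 9.55 CPM. Of 29 genes of serine synthesis and the ATF4 response, 4 (13.8%) were members, all at 1 CPM or more and with H3K4me3 in colon. PSAT1, an enzyme of serine synthesis, was at 251, 316, 150.1 and 349.8 CPM in DMSO and 16.0, 21.4 and 18.1 CPM in the mice, and MTHFD2, of mitochondrial folate metabolism, was at 431, 455, 331 and 509 and 35.0, 40.3 and 37.9 CPM. The other two were SHMT2, at a mean of 296 CPM in DMSO, and CHAC1, at 9.98 CPM. Of 47 growth factor signalling genes 4 (8.51%) were members, namely IGFBP2, FGFR1, IGFBP3 and BMP4, the last at 122, 193, 161 and 197 CPM in DMSO and 1.10, 1.49 and 3.61 CPM in the mice. Of 66 mitochondrial ribosomal protein genes 4 (6.06%) were members, MRPL22, MRPL24, MRPL35 and MRPS14, with colon means of 22.6 to 81.1 CPM. Of 8 replication-dependent histone genes 2 were members, HIST1H2BK and HIST1H2BN, both under 0.1 CPM in colon. The study made its RNA libraries with poly(A) selection, which misses RNA without a poly(A) tail. Its part in the levels and calls of the histone genes was not tested.

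**Figure D3:**
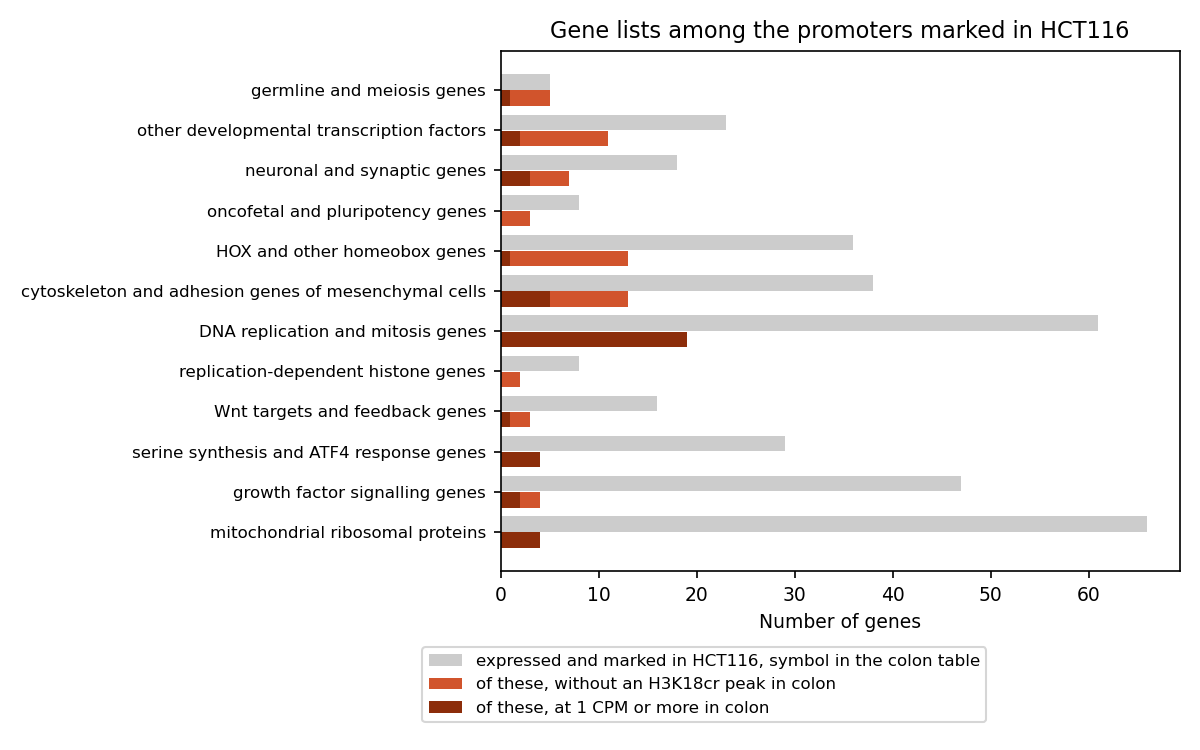
Number of genes of each list (horizontal axis) that were expressed and marked in HCT116 cells with a symbol in the colon table (grey), of these the genes without a colon H3K18cr peak (orange) and of these the genes at 1 CPM or more in colon (dark). The dark bar fills the orange one for the 19 DNA replication and mitosis genes and covers 1 of 13 HOX and other homeobox genes.

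The list of HCT116 peaks serves both marks, and levels over input are given for H3K18cr. The median H3K18cr level in DMSO was 56.9, 52.7 and 43.2 scaled reads per kb in the 3 libraries (50.9 ± 7.06, SD, n = 3), beside 59.8 ± 6.14 at the peaks of genes marked in both and 35.4 ± 2.41 over all peaks. As a log2 ratio to the DMSO input, with 1 read added, the median was 1.55 ± 0.219 (SD, n = 3) at the 1132 peaks, 1.71 ± 0.150 at the genes marked in both and 1.11 ± 0.107 over all peaks. The level was above the input in 3 of 3 libraries at 1124 of the 1132 peaks, and at least 2-fold above it at 760 (67.1%), compared with 80.8% at the genes marked in both and 40.004% of all peaks. Peaks had a median width of 2400 bp, and 2700 bp at the genes marked in both. The widest was that of PCDH7, a protocadherin, with 22950 bp (GRCh38, chr4:30713551-30736500), followed by COL1A1 (22500 bp), CYP24A1 (22350 bp), CAV1 (22200 bp) and SPATA20 (21900 bp). PCDH7 was at 104, 161, 104 and 190.2 CPM in DMSO and 0.367, 0 and 0 CPM in the mice. CYP24A1, which breaks down vitamin D, varied widely between DMSO libraries, at 90.9, 245, 60.9 and 291 CPM, and was at 0 in the mice. Of the genes named here NR2F1 and MZF1 had the densest H3K18cr, at 138 and 133 scaled reads per kb in DMSO.

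**Figure D4:**
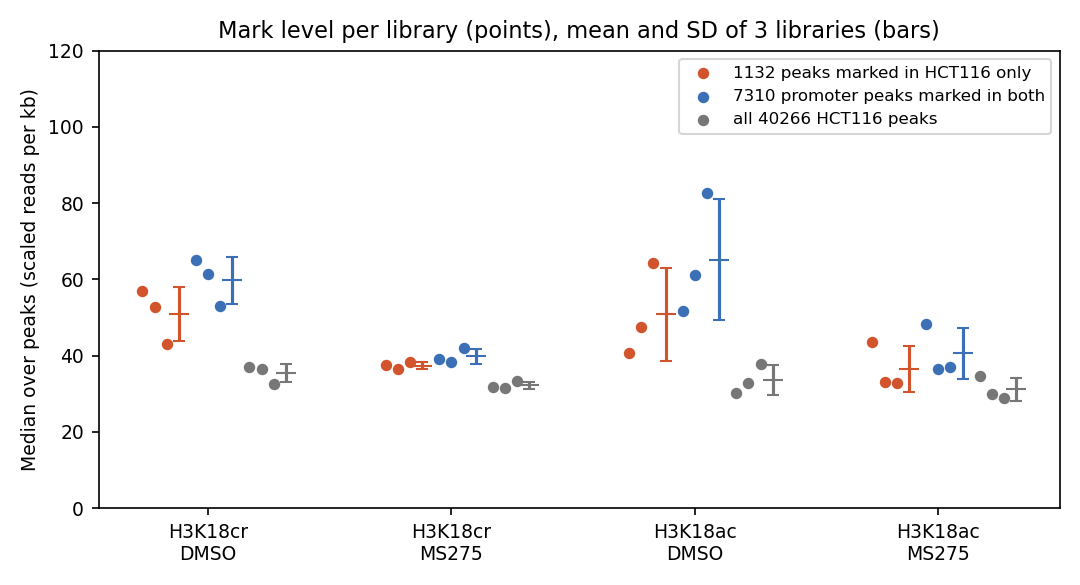
Median H3K18cr or H3K18ac level over peaks (vertical, scaled reads per kb) in each HCT116 library (points), with the mean and SD of the 3 libraries of a group (bars). Peaks without a colon counterpart (orange) lie between the peaks of genes marked in both (blue) and all peaks (grey) in each DMSO group, and the 3 sets lie closer together after MS275.

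Whether inhibition of histone deacetylases changed these promoters was tested first for H3K18cr, with limma on the log2 scaled reads and a threshold of 0.05 on the Benjamini-Hochberg adjusted p. On the scale the authors deposited, which sets libraries to a common size, H3K18cr was lower after MS275 at 522 and higher at 1 of 1124 peaks tested (46.5% called, beside 23.7% of all peaks, 23.4% lower and 0.236% higher). At the peaks of genes marked in both 66.1% were called. The median log2 change was -0.49 (quartiles -0.70 and -0.26), beside -0.61 at the genes marked in both and -0.20 over all peaks. Relative to all peaks the median at the 1132 peaks was thus -0.28. Such values give the share of a library's reads at a peak, so that a change in the total amount of the mark in the cells is not measured by them, and a lower value is not a lower amount per cell. Under another scaling, TMM over the peaks, the median of all peaks moved to 0.04 and that of the 1132 peaks to -0.24, and 256 peaks were called (22.8%, 22.1% lower and 0.712% higher, beside 13.05% of all peaks). TMM moves every peak alike, so the difference between these medians cannot change with it. On the deposited scale 341 peaks were called without DMSO replicate 1 (30.4%, beside 16.1% of all peaks). Falls are named among called peaks whose groups do not overlap, so the gap between groups follows from that choice. The largest was at PRAP1, an acidic protein secreted by intestinal epithelium (GRCh38, chr10:133307701-133309500). In RefSeq PRAP1 itself starts outside this peak, while ZNF511 and a read-through of ZNF511 into PRAP1 start inside it, so the peak may belong to ZNF511. It had 160.0, 159.7 and 206 scaled reads in the DMSO libraries and 45.0, 59.5 and 77.2 in the MS275 libraries. The MS275 libraries are the low ones, with a log2 change of -1.56 ± 0.20 (SE, adjusted p = 1.49e-05). ULBP1, a ligand of the natural killer receptor NKG2D, fell from 156, 164 and 173 to 57.4, 51.0 and 92.6 scaled reads, a change of -1.34 ± 0.20 (SE, adjusted p = 3.37e-05). MZF1, a zinc finger factor with one of the densest peaks, had 572, 618 and 668 scaled reads in DMSO and 216, 224 and 328 in MS275, a change of -1.30 ± 0.16 (SE, adjusted p = 1.49e-05). At both genes the MS275 libraries are the low ones. RAB36, a small GTPase, and SMC1A, a subunit of cohesin, followed with -1.21 ± 0.18 (SE, adjusted p = 3.08e-05) and -1.20 ± 0.19 (SE, adjusted p = 6.64e-05). The single rise on the deposited scale was at SLC8A2, a sodium-calcium exchanger named here after its value was seen, with 35, 28.7 and 20.1 scaled reads in DMSO and 40.5, 45.3 and 54.7 in MS275, a change of 0.77 ± 0.25 (SE, adjusted p = 0.0225).

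H3K18ac moved in the same direction with a wider spread between libraries. It was lower at 383 and higher at 1 of 1125 peaks tested (34.1% called, beside 16.8% of all peaks, 16.6% lower and 0.261% higher), and 52.8% were called at the genes marked in both. The median log2 change was -0.50, beside -0.69 at the genes marked in both and -0.19 over all peaks, that is, -0.31 relative to all peaks. This count rests on single libraries. It was 89 without MS275 replicate 2, 124 without MS275 replicate 3, 196 without DMSO replicate 2 and 202 without DMSO replicate 3, that is 7.91%, 11.02%, 17.5% and 18.02% of the peaks tested, beside 3.68%, 4.92%, 7.78% and 9.70% of all peaks. Among peaks without overlap the peak given to PRAP1 again fell most, with 159.6, 262 and 297 scaled reads in DMSO and 83.1, 72.6 and 61.8 in MS275, a change of -1.69 ± 0.25 (SE, adjusted p = 6.35e-07). TCTN3, a protein of the base of the cilium, had 144, 196 and 218 scaled reads in DMSO and 67.5, 61.0 and 60.8 in MS275, a change of -1.54 ± 0.25 (SE, adjusted p = 3.01e-06). DKC1, which modifies ribosomal RNA and stabilizes telomerase RNA, had 87.2, 99.5 and 172 scaled reads in DMSO and 61.0, 31.3 and 34.6 in MS275 (adjusted p = 3.8e-06). The MS275 libraries are again the low ones at these genes. The next falls were at peaks that lie at the starts of a pair of genes: BYSL, needed for the small ribosomal subunit, with MED20 of the Mediator complex (-1.44), and MCM7 with AP4M1 (-1.39). The rise was at PYGO1, a Wnt coactivator named after its value was seen, with 20.4, 27.1 and 43.8 scaled reads in DMSO and 64.9, 61.0 and 35.6 in MS275. The groups overlapped there, with a change of 0.85 ± 0.26 (SE, adjusted p = 0.0107).

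The marks were lower at fewer peaks of genes with little RNA in colon. Of 496 peaks at genes under 1 CPM in colon 169 were called for H3K18cr (34.1%, median -0.37), and of 628 at genes with 1 CPM or more 354 (56.4%, median -0.57). For H3K18ac 105 of 498 (21.1%, median -0.37) and 279 of 627 (44.5%, median -0.60) were called. Over all peaks 23.7% were called for H3K18cr and 16.8% for H3K18ac. Calls became more frequent with the level of a peak, so peaks of like level were compared. The level came from the same DMSO libraries as the change. A rise of the shares with level may therefore follow from that choice, which was not tested. At 40 to 60 scaled reads per kb in DMSO, H3K18cr was lower at 27.4% of the peaks of genes under 1 CPM in colon, at 46.0% of those of genes at 1 CPM or more and at 47.0% of those of genes marked in both. At 60 or more the shares were 78.0%, 91.8% and 93.0%. Under 40 they were 2.17%, 12.3% and 5.77%, so that there the peaks of genes at 1 CPM or more lay above those of genes marked in both. The H3K18ac shares were 0%, 3.48% and 1.06% under 40, 14.0%, 19.1% and 17.7% at 40 to 60 and 61.2%, 85.7% and 81.4% at 60 or more. The difference between the classes was not tested.

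By gene list, H3K18cr was called lower at 15 of 19 peaks of DNA replication and mitosis genes (median -0.68) and H3K18ac at 13 of 19 (median -0.77), beside -0.20 and -0.19 over all peaks. The counts of lists stand beside 23.7% of all peaks called for H3K18cr and 16.8% for H3K18ac, and are a description. At the peaks of genes marked in both 66.1% and 52.8% were called, with medians of -0.61 and -0.69. At those with 60 or more scaled reads per kb in DMSO, 93.0% and 81.4% were lower. The MCM5 peak had 271, 285 and 190.3 scaled reads of H3K18cr in DMSO and 133, 110.5 and 107 in MS275, with no overlap, and MCM6 and CENPF changed by -0.97 and -0.93. For the serine synthesis and ATF4 response genes both marks were called lower at 4 of 4 peaks, with H3K18cr medians of -0.84, and PSAT1 had 271, 272 and 207 scaled reads of H3K18cr in DMSO and 164, 163 and 133 in MS275. Of the homeobox genes 5 of 13 peaks were called for H3K18cr (median -0.43) and 1 of 13 for H3K18ac, and of the other developmental factors 4 and 2 of 11. MSX1 changed by -0.77 ± 0.18 (SE, adjusted p = 0.00147) for H3K18cr and was the homeobox gene called for H3K18ac, at -0.89 ± 0.25 (SE, adjusted p = 0.00626). Of the 14 peaks of mesenchymal genes 4 and 3 were called. The wide CAV1 peak had 1934, 1908 and 1428 scaled reads of H3K18cr in DMSO and 954, 932 and 1232 in MS275, a change of -0.76 ± 0.16 (SE, adjusted p = 0.000563). Of the neuronal genes 2 of 7 peaks were called for each mark, of the germline genes 3 and 2 of 5, of the mitochondrial ribosomal protein genes 3 and 0 of 4, and of the Wnt, oncofetal and growth factor genes 1 and 0 of 3, 1 and 0 of 3, and 2 and 1 of 4. The 3 peaks of the 2 histone genes were called for H3K18cr and 2 of them for H3K18ac. Of the genes with high RNA in HCT116 cells and under 1 CPM in colon, NR2F1 had 826, 700.2 and 645 scaled reads of H3K18cr in DMSO and 345, 358 and 438 in MS275, a change of -0.93 ± 0.15 (SE, adjusted p = 8.25e-05). DKK1 also passed the test (-0.59, adjusted p = 0.00939). S100A4 (-0.35, adjusted p = 0.0973), CRABP2 (-0.33, adjusted p = 0.169) and EEF1A2 (-0.37, adjusted p = 0.144) did not. These are examples, and other genes of that group are not given. FCGBP had 45.0, 57.3 and 55.7 scaled reads in DMSO and 51.7, 49.6 and 64.5 in MS275, which overlap.

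Differences between the marks did not exceed the spread of the libraries with limma. In DMSO no peak (0 of 1130) differed between H3K18cr and H3K18ac with limma (0% of all peaks), where 88 had an unadjusted p under 0.05. With edgeR and DESeq2 on the recovered reads 28 and 20 peaks were called (2.48% and 1.77%, beside 0.985% and 0.833% of all peaks). The median log2 difference was 0.03, with 0.11 at genes under 1 CPM in colon and -0.05 at the others. The effect of MS275 on H3K18cr minus that on H3K18ac passed the test at 0 of 1132 peaks with limma, with edgeR and with DESeq2 (0% of all peaks), and at 15 at an unadjusted p under 0.05, with a median of 0.03.

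RNA of the same genes was tested in the 4 libraries of each treatment. Without regard to pairs, edgeR's quasi-likelihood test called 0 of 1123 genes (beside 0.00668% of all genes), with 142 at an unadjusted p under 0.05, and DESeq2 called 22 (1.96%, beside 0.936% of all genes), with 1.78% higher and 0.178% lower. Same-numbered libraries deviated together, so the pairs were also fitted as blocks, and edgeR then called 249 genes, 170 higher and 79 lower (22.2%, beside 14.4% of all genes, 7.83% higher and 6.55% lower). At the genes marked in both 9.18% were higher and 8.94% lower. Rises outnumbered falls among the genes with little RNA in colon. Of 485 genes under 1 CPM there 102 (21.0%) rose and 20 (4.12%) fell, and of 638 genes at 1 CPM or more 68 (10.7%) rose and 59 (9.25%) fell. In the latter class the balance turned without pair 3, with 66 higher and 81 lower, and with the block in DESeq2, with 76 and 78. Among genes under 1 CPM rises outnumbered falls in each of these fits, with 105 and 27 without pair 3. Their level in HCT116 cells also differed, so genes of like level were compared. Between 10 and 100 CPM in DMSO, 28.1% (54 of 192) of the genes under 1 CPM in colon rose, compared with 10.97% of those at 1 CPM or more, 16.5% of the genes marked in both that were under 1 CPM in colon and 9.23% of all genes marked in both. Between 1 and 10 CPM the shares were 16.3%, 13.6%, 10.7% and 12.1%. At 100 CPM or more, 5 of 29 genes under 1 CPM in colon rose and 5 fell, and of 105 at 1 CPM or more 6 (5.71%) rose and 34 (32.4%) fell, beside 7.17% and 18.6% of the genes marked in both. The count of calls was 127, 125, 279 and 137 without pair 1, 2, 3 and 4, and rises then made up 10.3% to 21.6% of the genes under 1 CPM in colon and 5.33% to 10.3% of the others, beside 3.82%, 3.65%, 8.35% and 4.18% of all genes. The difference between these classes was not tested.

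**Figure D5:**
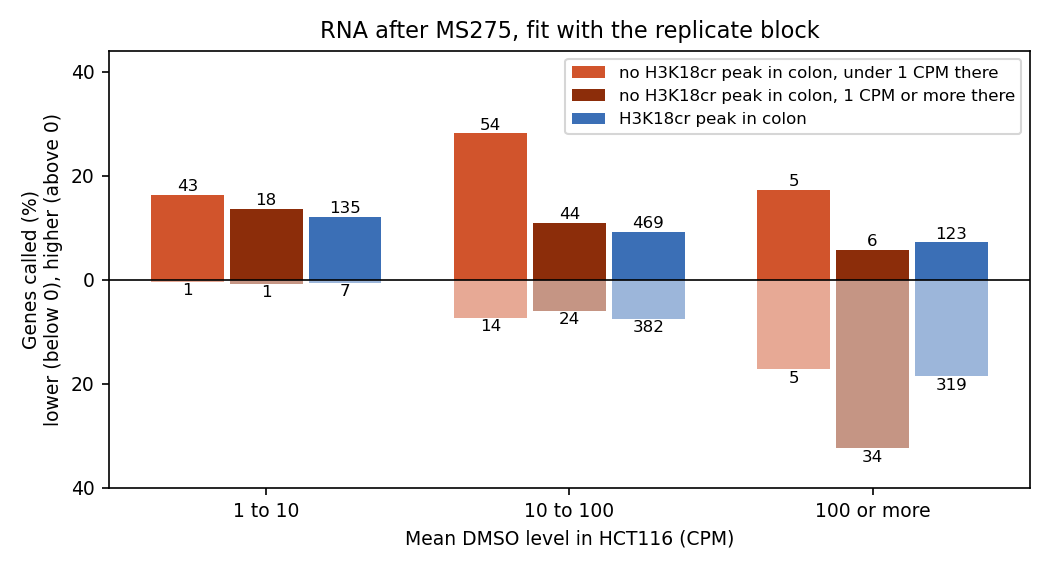
Share of genes called higher (above 0) or lower (below 0, pale) after MS275 with edgeR and the replicate block, by mean DMSO level in HCT116 cells (CPM) and by whether the gene had a colon H3K18cr peak and RNA in colon, with the number of genes at each bar. Rises reach 28.1% among genes between 10 and 100 CPM in HCT116 cells that had no colon H3K18cr peak and were under 1 CPM in colon.

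The largest rises with the block, among genes past a minimum count whose groups do not overlap, were at genes of low level. AMIGO2, an adhesion molecule, was at 1.02, 1.82, 0 and 1.48 CPM in DMSO and 5.78, 8.29, 3.40 and 5.60 CPM in MS275, a log2 change of 2.83 ± 0.65 (SE, adjusted p = 0.0131). SPP1, the secreted phosphoprotein osteopontin, was at 1.09, 2.29, 0 and 1.44 and 3.03, 10.2, 2.47 and 3.44 CPM, a change of 2.31 ± 0.70 (SE, adjusted p = 0.0444). MS275 was above DMSO in all 4 pairs of both genes, and the adjusted p without the block was 0.53 and 0.749 with edgeR. CTGF and NOV, related matricellular proteins, rose by 1.77 and 1.55, CTGF from 1.98, 2.29, 3.15 and 2.40 CPM to 12.2, 10.8, 6.49 and 5.67 CPM. SLCO3A1, an anion transporter, rose by 1.77 (adjusted p = 0.043). By the same rule the largest falls were led by HTR7, a serotonin receptor, with 51.9, 35.2, 32.6 and 28.9 CPM in DMSO and 25.8, 19.8, 12.2 and 18.1 CPM in MS275, a change of -0.99 ± 0.13 (SE, adjusted p = 0.000723). TEAD2 was at 25.1, 20.7, 20.8 and 24.04 CPM in MS275, all below its DMSO values given above, a change of -0.67 ± 0.12 (SE, adjusted p = 0.00304). SERPINH1, the collagen chaperone, changed by -0.64 ± 0.08 (SE, adjusted p = 0.000409), H2AFY2, which encodes a macroH2A histone, by -0.64 ± 0.09 (SE, adjusted p = 0.000772) and SPRYD4 by -0.78 ± 0.19 (SE, adjusted p = 0.0181). No gene named here was called by edgeR without the block, while DESeq2 without it called CTGF (adjusted p = 0.000717), TEAD2 (0.00880), NOV (0.0113) and HTR7 (0.0271). Of 28 named genes called with it, 15 were called in each fit with the block, DESeq2 and the fits without a pair included. The call was lost in at least 1 of these fits for AMIGO2, SPP1, SLCO3A1, NOV, SPRYD4, COL1A1, FOXC1, BYSL, DKC1, CAV1, CENPF, GPRIN1 and MTHFD2, with adjusted p of up to 0.224 (MTHFD2). For AMIGO2 the adjusted p ranged from 0.00138 to 0.0656 over these fits, for HTR7 from 5.96e-09 to 0.0106 and for NR2F1 from 1.31e-23 to 0.00484.

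Of the genes with high RNA in HCT116 cells and little in colon, NR2F1 fell and CRABP2 and DKK1 rose. NR2F1 was at 142, 293, 133 and 307 CPM in MS275, a change of -0.72 ± 0.07 (SE, adjusted p = 8.5e-05), lower in each of the 4 pairs, although DMSO replicates 1 and 3 lay within the range of the MS275 libraries. CRABP2 was at 279.9, 254, 233 and 211 CPM in MS275, all above its DMSO values, a change of 0.52 ± 0.07 (SE, adjusted p = 0.00077), and DKK1 at 571, 532, 255 and 509 CPM, a change of 0.33 ± 0.06 (SE, adjusted p = 0.00254). PAPSS2 and COL1A1 rose by 0.80 (adjusted p = 0.00429) and 0.92 (adjusted p = 0.00874). Among the lists, 7 of 19 DNA replication and mitosis genes fell and 2 rose, with MCM5 at -0.43 ± 0.06 (SE, adjusted p = 0.00139), MCM7 at -0.30 ± 0.05 (SE, adjusted p = 0.00375) and CENPF, a rise, at 0.20 ± 0.06 (SE, adjusted p = 0.0497). Of the serine synthesis and ATF4 response genes 2 of 4 fell, PSAT1 by 0.50 (adjusted p = 0.00122) and MTHFD2 by 0.20 (adjusted p = 0.0455). Rises were called at 2 of 13 homeobox genes, 4 of 11 other developmental factors, 4 of 13 mesenchymal genes, 3 of 7 neuronal genes, 1 of 5 germline genes, 1 of 3 oncofetal genes and 1 of 3 Wnt genes, beside 7.83% of all genes higher and 6.55% lower. With so few genes these counts are a description. Falls were called at 1 other developmental factor, TEAD2, and at 2 mesenchymal genes, CAV1 and PLAU. FOXC1 rose by 0.51 (adjusted p = 0.00665), PEG10 by 0.78 (adjusted p = 0.000447) and GPRIN1 by 0.33 (adjusted p = 0.0491), while PLAU fell by 0.56 (adjusted p = 0.00178) and PCDH7 by 0.54 (adjusted p = 0.000772). No gene (0) of the mitochondrial ribosomal protein, growth factor and histone lists was called by edgeR with the block.

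RNA and marks were then set side by side, as a description. At the 170 genes whose RNA rose, H3K18cr was lower at 33 of 172 peaks tested (19.2%, median -0.23, beside 23.4% lower over all peaks) and H3K18ac at 18 (10.5%, median -0.20, beside 16.6%), and 0 peaks were called higher for either mark. At the 79 genes whose RNA fell, H3K18cr was lower at 60 of 82 peaks (73.2%, median -0.69) and H3K18ac at 54 (65.9%, median -0.77). At genes not called, H3K18cr was lower at 432 of 875 peaks (49.4%, median -0.52) and H3K18ac at 314 of 876 (35.8%, median -0.53). The median of the peaks at genes that rose was thus close to that of all peaks, -0.20 for H3K18cr and -0.19 for H3K18ac. At the peaks of genes marked in both, 66.1% were lower for H3K18cr and 52.8% for H3K18ac. Levels were not matched in these counts. Calls of RNA and of the marks both varied with level, and the part of level in these shares was not tested. AMIGO2 had 172, 145 and 107 scaled reads of H3K18cr in DMSO and 165, 167 and 130.5 in MS275, and HTR7 had 639, 495 and 374 and 304, 299 and 325. The AMIGO2 libraries overlapped, and those of HTR7 did not.

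Genes near the limits of the rule are given once. The starts of GON4L and BEAN1 lay 1000 and 997 bp from their peaks, and that of SH2D2A, outside the limit, 1012 bp. GATM and SPOCD1 were included at a mean of 1.00 CPM in DMSO, and PAQR6 and CHST13 were not, at 0.984 and 0.970 CPM. The nearest colon H3K18cr peak lay 2018 and 2039 bp from the mouse genes of MXD3 and PNPLA3, and 1982 and 1979 bp from those of NOP10 and PKN3, which were therefore counted as marked in both. Of the 1132 peaks, 86 also lay at a gene marked in both, 39 lay at more than 1 of the 1123 genes, and 47 genes had more than 1 peak. Of 846 genes with a RefSeq start, 783 (92.6%) had it within 1 kb of their peak, and 63 had not, so that the peak of those genes may mark another start. HDAC1, HDAC2, HDAC3, CDKN1A and CLDN7, which the study discusses, were not among the 1123.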

How the data were processed

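HCT116 and mouse colon libraries, 33 in all, were available in 5 deposited tables. RNA tables held raw read counts per gene made by the authors in SEQMONK after alignment, with no normalization. The HCT116 ChIP table held log2 values deposited by the authors. These were reads per peak, without duplicates, scaled by 1 factor per library to the largest library, with 0.9 set for no read, in peaks called with MACS over both marks. The colon ChIP tables held the same kind of scaled reads, deposited as signal values per peak of each mark. The peak coordinates are in GRCh38 (HCT116) and GRCm38 (colon), from the study's methods. The submitters' processing notes name Trim Galore 0.4.2, TopHat2 2.0.12 and Bowtie2 2.2.5, while the study's methods name HiSat2 for RNA. Strand-specific counting is not given in the sources used here, so overlapping or antisense genes cannot be told apart. Counts and reads cover counting error only where an upper limit is given.

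Peaks with at least 10 recovered reads in at least 3 libraries were tested on the deposited log2 scale with limma 3.58.1 (trend), and genes with edgeR 4.0.16 (quasi-likelihood, TMM, its default filter by expression), in R 4.3.3. The limma and edgeR fits without the block were checked on simulated independent libraries, and the fit with the replicate block was not checked in this way. P-values were adjusted by Benjamini-Hochberg over all peaks or genes tested, with a threshold of 0.05, and adjusted p-values in the report come from these tools. Reads were recovered from the scaled values (whole within 0.02) for edgeR and DESeq2 1.42.0. Other alternatives were TMM over peaks, no filter, leaving out each library, other limits of the rule and the replicate block. Same-numbered RNA libraries of the treatments correlated in their deviations from the group means by 0.226, 0.15, 0.43 and 0.46, all over 0.1, so that they were taken as pairs from the data, and both fits are reported. DMSO replicate 2 correlated as well with MS275 replicate 4 (0.24). Sequence windows came from RefSeq (GRCh38.p14) and the GRCh38 and GRCm38 genomes. The RefSeq promoter table held 846 of the 1123 genes. EEF1A2 and PAPSS2 were not among them.

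The members and gene lists were chosen with earlier results of these data known. Genes were named by rule: up to 4 of each list by H3K18cr per kb, the 10 highest in HCT116 cells per kb of exon under 1 CPM in colon, the 5 highest in colon, the 5 widest peaks, and the 5 largest called rises and falls of each test with a mean of at least 50 reads or 100 counts and no overlap between groups. No rise of either mark met this rule. The rest are named as chosen after their values were seen.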

Additional observations from a re-analysis of the deposited data

Results flagged for a closer look

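Of 158 groups of 4 RNA libraries of the 79 named genes, 9 held a library far from the other 3, by Dixon's ratio, the gap to its nearest neighbour over the range of the group. Chance gives about 1 such group in 20, and the groups share libraries. In DMSO, replicate 1 stood apart for CRABP2 (gap over range 0.865, 197 CPM against 156 to 162 CPM) and replicate 3 for DKK1 (0.843, 196 CPM against 408 to 447 CPM). In MS275, replicate 3 stood apart for HOXC9 (0.950, 14.1 CPM against 7.78 to 8.10 CPM), HSPB1 (0.885, 814 CPM against 382 to 432 CPM), MSX1 (0.876, 162 CPM against 80.3 to 90.4 CPM), MZF1 (0.884, 20.2 CPM against 10.2 to 11.3 CPM) and NPW (0.918, 379 CPM against 158 to 176 CPM). Replicate 1 stood apart for MCM7 (0.868, 619.6 CPM against 466 to 486 CPM) and replicate 2 for SPP1 (0.875, 10.2 CPM against 2.47 to 3.44 CPM). In 5 of the 7 MS275 groups it was replicate 3, the highest library in each of them. DMSO replicate 3, which the pairing check sets beside it, was also the highest DMSO library for these 5 genes. Without pair 3 the RNA calls with the block went from 249 to 279.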

How the results depend on the processing

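For H3K18cr after MS275 the 523 called peaks became 273 with edgeR and 176 with DESeq2 on recovered reads (24.3% and 15.7%, beside 13.9% and 8.59% of all peaks; DESeq2 left some peaks with no adjusted p), 256 with TMM over the peaks and 341 to 721 without each library in turn, the fewest without DMSO replicate 1 and the most without DMSO replicate 3. Its median change of -0.49 became -0.24 with TMM. For H3K18ac the 384 called peaks became 397 with TMM, and 89 to 542 without each library, the fewest without MS275 replicate 2 and the most without DMSO replicate 1. The cause of these changes was not tested. Between the marks in DMSO, 28 peaks were called with edgeR, 20 with DESeq2 and 7 with TMM, in place of 0. The deviations of same-numbered ChIP libraries correlated at 0.10, 0.07 and 0.22 for H3K18cr and -0.21, 0.05 and -0.13 for H3K18ac, not all over 0.1, so they were not taken as pairs. As a replicate block the number moved the H3K18cr calls to 604 and the H3K18ac calls to 70. For RNA the count of 0 became 22 with DESeq2, 249 with the replicate block, 292 with the block in DESeq2 (247 of them among the 249), and 127, 125, 279 and 137 with the block without pair 1, 2, 3 and 4 (124, 120, 212 and 133 among the 249). The blocks without a pair, the block in DESeq2 and the comparison at like levels were chosen after seeing the data. Other limits of the rule gave 797 to 1223 genes and 812 to 1229 peaks. No named change reversed its sign. Among genes at 1 CPM or more in colon, 68 higher and 59 lower with the block became 66 and 81 without pair 3 and 76 and 78 with the block in DESeq2. With 3 libraries per group and the depth given, small changes at weak peaks may have been missed.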
